A study of Mus musculus with 12 samples.

Results

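The genes described here are 10 heat shock genes of the mouse: the transcription factor gene Hsf1, the HSP70 genes Hspa1a, Hspa1b and Hspa8, the HSP40 gene Dnajb1, the HSP110 gene Hsph1, the cytosolic HSP90 genes Hsp90aa1 and Hsp90ab1, and the mitochondrial chaperonin genes Hspd1 and Hspe1. They were chosen by gene name from the 36175 genes of the deposited expression table, and all 10 names were found. Total RNA of B cells, taken from the lymphoid Peyer's patches (PP) of the gut in 12 male wild-type C57BL/6JHsd mice, had been sequenced in bulk. The mice were 10 to 12 weeks old, and the comparison asks how PP B cells differ after a stroke. In 6 mice, called stroke mice here and labelled as brain injury, a filament had blocked the middle cerebral artery for 1 h, and in 6 sham controls it had been inserted and taken out at once. Methods common to both groups were an analgesic before and another after surgery, a collection time of 18 h after surgery, and magnetic purification with a B cell kit followed by CD45 beads. Each mouse gave a separate sample, so p-values reflect the variation between mice.

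Heat shock proteins are chaperones, which help other proteins to fold and keep them from clumping. In resting cells HSF1 is held inactive by chaperones. When unfolded proteins draw the chaperones away, HSF1 forms trimers, binds heat shock elements in promoters and raises the transcription of inducible genes such as Hspa1a and Hspa1b, whereas Hspa8 and Hsp90ab1 are made at high levels in unstressed cells. In B cells, chaperones of the cytosol and of the endoplasmic reticulum serve the folding of signaling proteins and of antibodies.

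The values are labelled as normalized TPM, a per-length unit in which genes can be compared, but their totals differed between mice, from 559570 in sham control 6 to 1404340 in sham control 1. Between 20626 and 23947 genes were above 0 in 11 mice, and 30060 in stroke mouse 6. No read counts were used, so the depth behind each value is unknown. All 8 fixed B cell markers were detected, and their summed level ranged from 2496 to 3207 in sham controls and from 1587 to 2852 in stroke mice, with Cd22 and Cd79a as the most abundant. Sham control 6 stood apart in the members, and results that rest on it are therefore given with and without it. It was picked by the members' own values, so their results without it are descriptions and not support for a difference. Over all genes it was not alone: on the first principal component it lay at 73.9, stroke mouse 5 at 59.3, and sham controls 1 and 2 at -75.5 and -74.4, with the other mice between -40.4 and 45.2. In bulk samples, fewer cells of a type and less RNA per cell cannot be told apart.

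Heat shock elements are repeats of inverted 5-base units, each with GAA or its complement TTC at its core. The letters GAANNTTC and TTCNNGAA (2 units), GAANNTTCNNGAA and TTCNNGAANNTTC (3 units), and their extension to 4 units were searched on both strands in RefSeq promoter windows (GRCm38.p6), which run from 250 bases before a gene's start to 50 bases after it. The table held 9 windows of 6 members. A match of 2 or more units was found for 5 of these 6 genes, whereas 17.0% of all 27025 genes with a window had one. A match of 3 or more units, present in 0.603% of all 32851 windows, was found for Hsph1, Hspd1 and Hspe1. Both windows of Dnajb1 held none of these letters. A match is a description of the letters and not a shown binding site.

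The stretches around the elements are printed 5′ to 3′ on the strand of the gene, with the matched units in capitals, because they show how alike the promoters of the most variable members are. For Hspa1a (chr17:34972247-34972366, minus strand) and Hspa1b (chr17:34959329-34959448, minus strand), both between genes, the element lies from 104 to 97 bases before the start of the gene:

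Hspa1a: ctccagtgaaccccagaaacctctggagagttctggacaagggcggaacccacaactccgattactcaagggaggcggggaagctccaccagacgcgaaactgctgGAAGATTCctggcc
Hspa1b: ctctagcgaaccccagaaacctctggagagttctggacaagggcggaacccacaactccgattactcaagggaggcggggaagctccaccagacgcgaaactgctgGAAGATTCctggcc

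Over the whole 300-base window the Hspa1a and Hspa1b sequences were 98.7% identical. The 4 differences were C44T, T47C, T249G and C276T, with the base of Hspa1a first and positions counted from 1 at the 5′ end of the window. Hsph1 had a 2-unit element before its start (chr5:149636327-149636404, minus strand, in a stretch that the annotation also lists as an intron of a longer Hsph1 transcript) and a 3-unit element, TTCTGGAAAGTTC, after it (chr5:149636288-149636300, in a non-coding part of an exon). Hspe1 and Hspd1 share a 4-unit element that lies before the start of Hspe1 and before an alternative start of Hspd1 (chr1:55088024-55088111, printed on the plus strand, the strand of Hspe1, and within an Hspd1 intron). Only 8 of the 32851 windows held 4 units, including those of this pair, and the window at the other Hspd1 start held none of the letters:

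Hsph1: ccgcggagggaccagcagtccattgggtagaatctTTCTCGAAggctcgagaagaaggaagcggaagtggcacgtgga
Hspe1: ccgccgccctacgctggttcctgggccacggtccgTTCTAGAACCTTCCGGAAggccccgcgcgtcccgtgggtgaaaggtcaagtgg

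Averaged over the 12 mice, Hsp90ab1 was the most abundant member at 761 and Hspa8 the next at 599 normalized TPM. Hsp90aa1 followed at 286, Hspe1 at 103, Hspd1 at 66.1, Hsph1 at 45.7, Hsf1 at 37.8, Dnajb1 at 16.9, Hspa1b at 4.21 and Hspa1a at 1.46. The ranges over mice overlapped for every pair of neighbours in this order. Within each mouse, 6 of the 9 neighbouring pairs kept the order in all 12 mice. The exceptions were Hsp90ab1 and Hspa8, in this order in 11 mice, Hspd1 and Hsph1 in 9 mice, and Hsph1 and Hsf1 in 7 mice.

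**Figure D1:**
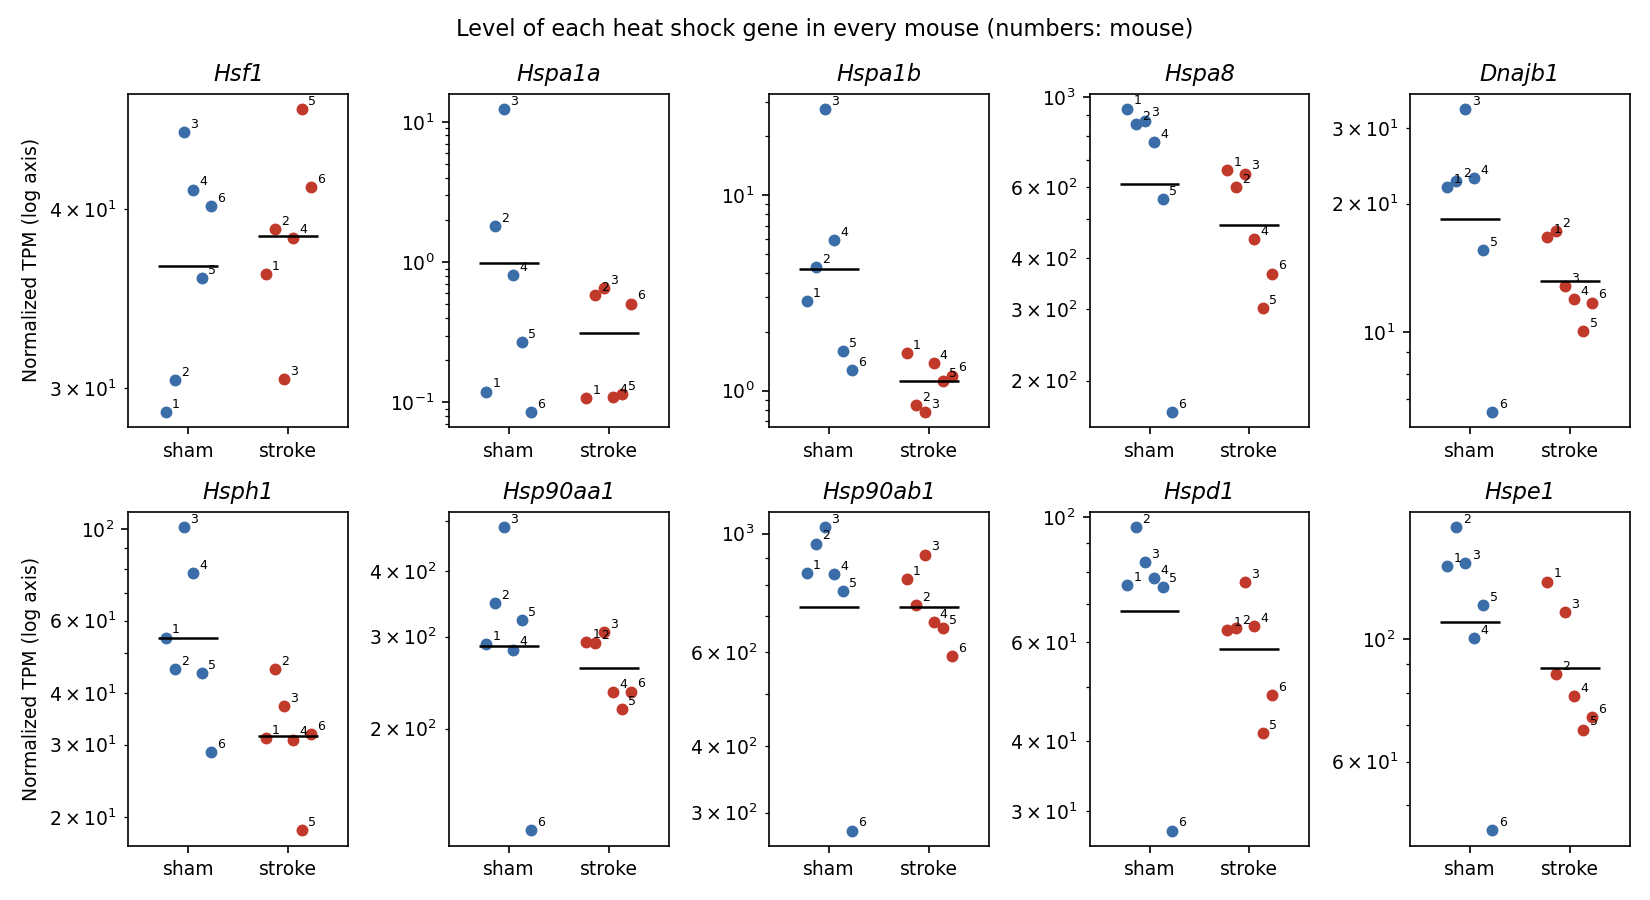
Level of each member in every mouse, in normalized TPM on a log axis, with sham controls in blue and stroke mice in red. The small numbers are the mouse numbers and the black lines the group means on the log2(value + 0.5) scale. Sham 3 lies highest for Hspa1a, Hspa1b, Dnajb1, Hsph1 and both HSP90 genes, and sham 6 lies lowest of the 12 mice for 7 genes (all but Hsf1, Hspa1b and Hsph1).

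Genes were tested with limma on log2(value + 0.5) across the 15624 genes with a mean of at least 1, and fold changes are given on this scale, which understates the change of low genes. The 10 members all passed this filter, Hspa1a only because of its value in sham control 3. At an unadjusted p under 0.05, 2 members, Hspa1b and Hsph1, were lower in stroke mice, beside 1.6% of all genes tested, and 0 members were higher, beside 4.29%. After Benjamini-Hochberg adjustment over all genes, 0 members passed 0.05, beside 0.0064% of all genes in either direction. The members' median log2 fold change was -0.31, with 9 of 10 below 0, compared with a median of 0.01 and 48.1% below 0 over all genes tested. Because Hspa1a entered through a single high sham control, the median was also taken over the other 9 members, and was -0.28 with 8 below 0. These are descriptions of members that vary together and not support for a difference. No member separated the groups in full, as 0.0704% of all genes did by having every stroke mouse below every sham control.

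Hsf1 (chr15:76477422-76501913, plus strand), the factor that drives the heat shock response, varied little. In sham controls it ranged from 28.9 to 45.2 with a median of 37.99, and in stroke mice from 30.5 to 47.0 with a median of 38.5. Most mice of both groups lay in the same range, with sham controls 1 and 2 just below every stroke mouse and stroke mouse 5 above every sham control. The means were 37.0 ± 6.44 (SD, n = 6) and 38.6 ± 5.50 (SD, n = 6), and the log2 fold change was 0.07 with a 95% interval from -0.24 to 0.38 (limma, adjusted p = 0.920). Its message therefore differed by less than the variation between mice, and the activity of the protein was not measured.

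Hspa1b (chr17:34956436-34959238, minus strand), an inducible HSP70, differed most between the groups among the members. In sham controls 1 to 6 it was at 2.88, 4.27, 27.8, 5.90, 1.59 and 1.27. In stroke mice 1 to 6 it was at 1.56, 0.844, 0.778, 1.39, 1.12 and 1.196. Thus 5 of 6 sham controls lay above every stroke mouse, and sham control 6 lay within the stroke range. The sham mean was 7.28 ± 10.2 (SD, n = 6) and the stroke mean 1.15 ± 0.304 (SD, n = 6). The change was -1.53 ± 0.547 (SE) on the log2 scale, with an unadjusted limma p of 0.0155, an adjusted p of 0.789 and an exact two-sided permutation p of 0.00866. Without sham control 3, the highest mouse, the log2 fold change was -1.02 (limma, unadjusted p = 0.00746, adjusted p = 0.876). Without sham control 6 it was -1.82 (limma, adjusted p = 0.294). All 6 stroke mice then lay below all remaining sham controls, which follows from leaving out the only sham control within the stroke range. The share of all genes separated in this way was not computed.

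Hspa1a (chr17:34969190-34972156, minus strand), the neighbouring inducible HSP70 gene, was the lowest member. In sham controls 1 to 6 it was at 0.120, 1.80, 12.4, 0.806, 0.270 and 0.0855. In stroke mice it ranged from 0.108 to 0.6502 with a median of 0.310. The groups overlapped, with 3 sham controls above every stroke mouse. The difference of -0.87 ± 0.652 (SE) on the log2 scale did not pass the test (limma, adjusted p = 0.806). Without sham control 3 it was -0.25 (limma, adjusted p = 0.931). Of the 31-base words in the Hspa1a transcript, 63.8% also occurred in that of Hspa1b, and 67.6% the other way round, so the split of reads between both genes is uncertain. Hspa1a also overlaps the antisense gene Gm20481.

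Hspa8 (chr9:40800984-40810087, plus strand), the constitutive HSP70 that carries much of the routine folding work, was abundant throughout. It ranged from 168 to 935 with a median of 815 in sham controls, and from 302 to 661 with a median of 523 in stroke mice. All 6 stroke mice lay below the sham median and 4 sham controls lay above every stroke mouse, yet the lowest value of all was that of sham control 6. The log2 fold change was -0.33 ± 0.396 (SE) over all mice (limma, adjusted p = 0.865) and -0.71 ± 0.230 (SE) without sham control 6 (limma, unadjusted p = 0.0104, adjusted p = 0.299). It shrank to -0.21 without sham control 1 and to -0.20 without stroke mouse 5. The gene holds the small nucleolar RNA genes Snord14c, Snord14d and Snord14e.

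Within a mouse, a ratio of genes is free of the factor that scales that mouse. Hspa1a and Hspa1b together made up 0.321%, 0.709%, 4.597%, 0.865%, 0.332% and 0.812% of the level of Hspa8 in sham controls 1 to 6. In stroke mice 1 to 6 the ratio was 0.253%, 0.238%, 0.221%, 0.335%, 0.407% and 0.464%. Sham controls 2, 3, 4 and 6 lay above every stroke mouse, and sham controls 1 and 5 lay within the stroke range. The mean was 1.27 ± 1.65% (SD, n = 6) compared with 0.320 ± 0.0995% (SD, n = 6). Sham control 6 had the lowest Hspa8 of all mice, at 168, and the lowest Hspa1a and Hspa1b of the sham controls, at 0.0855 and 1.27. Its ratio was therefore high through the low Hspa8 and not through a high level of the inducible genes.

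Dnajb1 (chr8:83608193-83612653, plus strand) encodes an HSP40 that delivers substrates to HSP70 and stimulates its ATPase. It ranged from 6.52 to 33.4 with a median of 22.2 in sham controls and from 10.1 to 17.2 with a median of 12.4 in stroke mice. All 6 stroke mice lay below the sham median, and 4 sham controls lay above every stroke mouse. The log2 fold change was -0.47 ± 0.316 (SE; limma, adjusted p = 0.793), and without sham control 6 it was -0.76 ± 0.197 (SE; limma, unadjusted p = 0.00265, adjusted p = 0.283). Without sham control 3 it was -0.30 (limma, adjusted p = 0.905).

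Hsph1 (chr5:149614287-149636376, minus strand) encodes an HSP110 that exchanges the nucleotide on HSP70. In sham controls 1 to 6 it was at 54.5, 45.8, 101.0, 78.2, 44.8 and 28.8, and in stroke mice 1 to 6 at 31.1, 45.7, 37.1, 30.9, 18.6 and 31.9. The groups overlapped through sham controls 5 and 6 and stroke mouse 2, and 4 sham controls lay above every stroke mouse. The means were 58.9 ± 26.2 (SD, n = 6) and 32.6 ± 8.89 (SD, n = 6). The log2 fold change was -0.78 ± 0.291 (SE), with an unadjusted limma p of 0.0199, an adjusted p of 0.789 and an exact two-sided permutation p of 0.0346. It was -0.60 without sham control 3 and -0.96 without sham control 6 (limma, adjusted p = 0.876 and 0.283). With the replicate numbers of the labels taken as pairs, the exact sign-flip p was 0.0938.

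The cytosolic HSP90 proteins mature kinases and steroid receptors. Hsp90aa1 (chr12:110690605-110702728, minus strand), the stress-inducible form, ranged from 128 to 486 with a median of 307 in sham controls and from 218 to 306 with a median of 263 in stroke mice. Hsp90ab1 (chr17:45567775-45573271, minus strand), the constitutive form, ranged from 278 to 1028 with a median of 840 in sham controls and from 590 to 913 with a median of 709 in stroke mice. The groups overlapped for both genes. The log2 fold change was -0.14 with a 95% interval from -0.71 to 0.42 for Hsp90aa1 (limma, adjusted p = 0.907) and -0.004 with a 95% interval from -0.61 to 0.60 for Hsp90ab1 (limma, adjusted p = 0.998). Differences of this size in either direction therefore remain possible. The direction of both rested on single mice: without sham control 3, Hsp90aa1 was at 0.006 and Hsp90ab1 at 0.095, and without sham control 6 they were at -0.38 and -0.28. Hsp90aa1 amounted to between 33.8% and 47.3% of Hsp90ab1 in sham controls and between 32.8% and 39.9% in stroke mice, with sham control 3 the highest.

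Hspd1 (chr1:55077835-55088243, minus strand) and Hspe1 (chr1:55088132-55091307, plus strand) encode HSP60 and its lid HSP10, which fold proteins inside mitochondria. The genes face away from each other and overlap by 112 bases at their starts. Hspd1 ranged from 27.7 to 96.1 with a median of 76.9 in sham controls and from 41.3 to 76.8 with a median of 63.2 in stroke mice. Hspe1 ranged from 45.03 to 159 with a median of 125 in sham controls and from 68.5 to 127 with a median of 82.5 in stroke mice. The groups overlapped for both. The log2 fold changes were -0.22 ± 0.275 (SE) and -0.28 ± 0.284 (SE; limma, adjusted p = 0.867 and 0.845), and without sham control 6 they were -0.48 and -0.53 (limma, adjusted p = 0.301 and 0.304). Hspd1 was at -0.12 without sham control 2 and also without stroke mouse 5, and Hspe1 was at -0.17 without sham control 2. The level of Hspd1 was 63.7 ± 7.59% (SD, n = 6) of that of Hspe1 in sham controls, and in stroke mice 66.7 ± 10.9% (SD, n = 6), a difference smaller than the spread within either group.

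Without sham control 6, 7 members were lower at an unadjusted p under 0.05, namely Hspa1b, Hsph1, Dnajb1, Hspa8, Hspd1, Hspe1 and Hsp90aa1, beside 8.33% of all genes tested. At an adjusted p under 0.05, 0 members were lower in this comparison, beside 0% of all genes, and 0 members were higher at an unadjusted p, beside 7.19%. The members' median log2 fold change was then -0.62, or -0.53 over the 9 members other than Hspa1a, compared with -0.01 over all genes. With this mouse left out and the others scaled to the same total, a setting chosen after seeing the data, Hspa1b was the only member lower at an unadjusted p under 0.05 (log2 fold change -1.59), beside 2.39% of all genes. The larger count therefore depends both on this mouse and on the scaling. As the mouse was singled out by the members' own low values, the count and its p-values are not support for a difference.

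**Figure D2:**
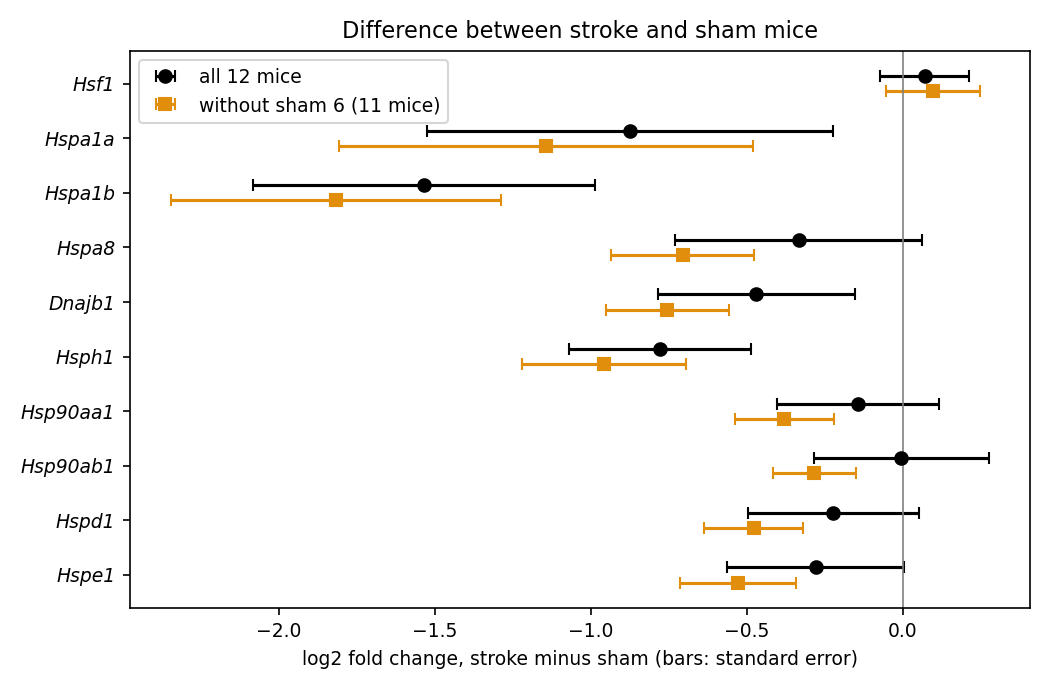
Log2 fold change of each member (stroke minus sham, on log2(value + 0.5)) with its standard error, for all 12 mice (circles) and without sham 6 (squares). Leaving out sham 6 moves 9 members toward lower values, and Hspa1b and Hsph1 lie below 0 by more than 2 standard errors in both.

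Sham controls 3 and 6 departed from the other sham controls in different ways. In sham control 3, Hspa1a was 20.1 times and Hspa1b 8.72 times the mean of the other 5 sham controls, which placed their log2 differences at ranks 10 and 14 from the top of the 15624 genes tested. The rank of Hspa1a is no support, as the gene passed the filter only through this mouse. Hsph1 was 2.003 times, Dnajb1 1.87 times and Hsp90aa1 1.77 times that mean, whereas Hsp90ab1 was 1.39, Hspa8 1.33, Hsf1 1.28, Hspe1 1.24 and Hspd1 1.18 times it. The inducible HSP70 genes were thus far ahead of the constitutive and mitochondrial members in this mouse. Over all 15624 genes tested, 43.4% were above the mean of the other sham controls in this mouse, with a median of 0.966 times it. Of 10 other known HSF1 target genes tested, 8 were above that mean, with a median of 1.17 times it. The mean includes sham control 6, where all members but Hsf1, all 10 of these genes and all 12 immediate early genes were low. Its low values raise the ratios of sham control 3, which were not taken without that mouse. Dnaja1 was the highest at 1.59 times that mean, but Bag3, a stress-inducible partner of HSP70, was at 1.28 compared with a mean of 2.10. Among immediate early genes, which respond within minutes to stimulation, 10 of 12 tested were above that mean, with a median of 1.40 times it. The values ran from 0.441 times for Atf3 and 0.987 times for Egr1 to 1.74 times for Jun, 1.77 times for Dusp1 and 3.28 times for Fosb.

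In sham control 6, all members but Hsf1 were low. Hspa1a was at 0.0278 times and Hspa1b at 0.150 times the mean of the other sham controls, a mean that includes the high values of sham control 3. Hspa8 was at 0.209 times that mean, Dnajb1 at 0.280, Hsp90ab1 at 0.312, Hspd1 at 0.339, Hspe1 at 0.348, Hsp90aa1 at 0.369 and Hsph1 at 0.444 times it, whereas Hsf1 was at 1.11 times it. Over all genes tested the median was 0.889 times that mean. Many other genes were as low in this mouse, where the log2 difference of Hspa8 ranked 569 and that of Hsph1 ranked 2074 from the bottom of the 15624 genes. Of the 10 other HSF1 target genes, 0 were above the mean of the other sham controls, with a median of 0.366 times it. Of the 12 immediate early genes, 0 were above it, with a median of 0.456 times it. The 10 members summed to 0.129% of the total in sham control 6, 0.312% in sham control 3, between 0.170% and 0.239% in the other sham controls and between 0.162% and 0.220% in stroke mice. Other cell types moved too. All 8 epithelial markers, led by Fabp2 and Krt8, were detected and summed to 1460 and 1433 in sham controls 1 and 2, 173 in sham control 3 and 10.7 in sham control 6, with a range from 12.9 to 708 in stroke mice. The 5 plasma cell markers, led by Jchain and Xbp1, summed to 212 in sham control 6, compared with 619 to 1231 in the other sham controls and 278 to 887 in stroke mice. The part of these markers in the members' levels was not tested.

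**Figure D3:**
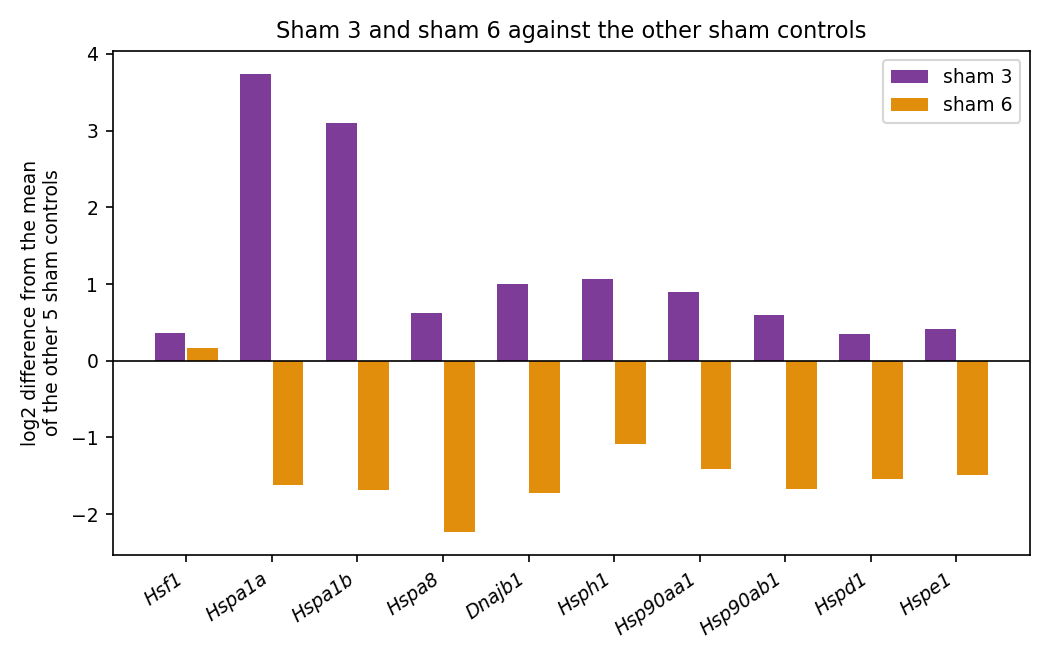
Difference of sham 3 and sham 6 from the mean of the other 5 sham controls for each member, on the log2(value + 0.5) scale. Sham 3 reaches 3.74 for Hspa1a and 3.10 for Hspa1b, and sham 6 lies below 0 for all members except Hsf1.

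Members also varied together between mice. After removal of the group means, the median Pearson r over the 45 pairs of members was 0.692 over 12 mice, and 18 pairs had an adjusted p under 0.05 (permutation of mice within groups, Benjamini-Hochberg over the 45 pairs), or 13 pairs by Spearman's rho. The pairs were closest among Hspa8, Dnajb1, Hsp90aa1, Hsp90ab1, Hspd1 and Hspe1, with r from 0.845 to 0.950 over their 15 pairs. For example, Hspa8 and Hsp90ab1 had an r of 0.946 (permutation p = 0.00068, adjusted p = 0.00655) and a rho of 0.902 (permutation p = 0.00031, adjusted p = 0.00615), and without the 2 mice farthest from the median of Hspa8, r was 0.825. A large part rested on sham control 6. Without it, r over the 15 pairs ranged from 0.459 to 0.809. The median r of these members with all genes tested was between 0.092 and 0.119. Each of the 6 had an r over 0.8 with between 3.8% and 12.0% of all genes tested, so close co-variation was not limited to the members.

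Hspa1a and Hspa1b correlated with each other at an r of 0.857 (permutation p = 0.0284, adjusted p = 0.0639) and a rho of 0.517 (permutation p = 0.168, adjusted p = 0.260). This relation rested mostly on sham control 3, as r was 0.434 without it, 0.832 without sham control 6, 0.258 without both and -0.816 within the 6 stroke mice. Hsf1 had a negative r with 6 of the 9 other members, from -0.525 with Hspe1 to -0.125 with Dnajb1, and none of these passed the adjusted test (adjusted p from 0.192 to 0.8, permutation). These signs depended on scaling and mice. At the same total, r with Dnajb1 (0.091), Hsp90aa1 (0.292) and Hsp90ab1 (0.023) was positive, as it was with Dnajb1 (0.093) and Hsp90aa1 (0.004) without sham control 6, whereas without sham control 3 it was negative with all 9 members, from -0.73 to -0.006. With quantile normalization, r with Hsp90ab1 was 0.091.

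**Figure D4:**
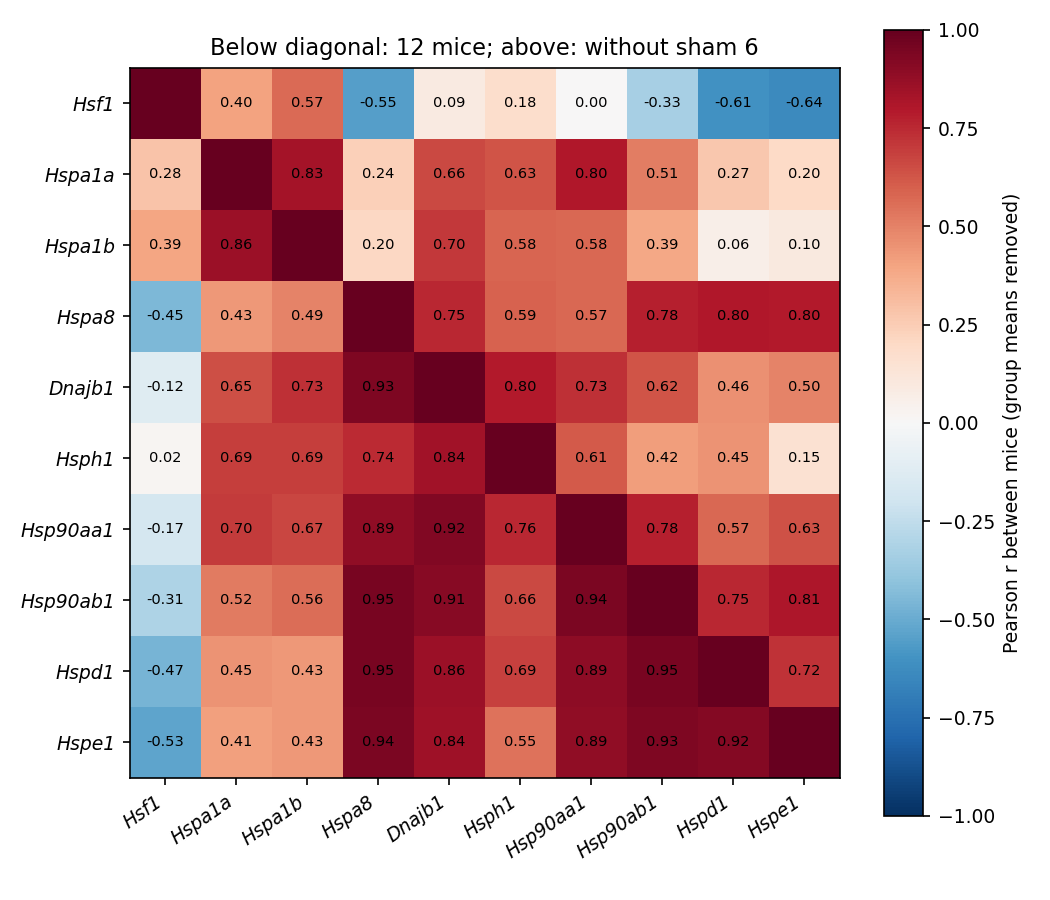
Pearson r between members across mice on log2(value + 0.5) after removal of the group means, for 12 mice below the diagonal and without sham 6 above it. The block of Hspa8, Dnajb1, the HSP90 and the mitochondrial genes has r of 0.845 or more below the diagonal and weaker values above it, and Hsf1 stands outside it.

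Outside the members, the genes whose levels over the 12 mice were most like the mean of Hspa1a, Hspa1b, Dnajb1 and Hsph1 were Clptm1l (r = 0.898), Zfp800 (0.868), Tmem33 (0.857), Septin11 (0.851) and Dock11 (0.842). This is a description of likeness over 12 mice without a test. Without sham control 3 the values were 0.746, 0.852, 0.731, 0.877 and 0.829.

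Other chaperone genes were compared as lists of known families. Of 104 such genes, 86 passed the filter, 1 was lower and 2 were higher at an unadjusted p under 0.05, 55 were below 0, and their median log2 fold change was -0.06. These are 1.16% lower and 2.33% higher, beside the 1.6% and 4.29% of all genes given above. Without sham control 6, 21 (24.4%) were lower and 2 higher, beside 8.33% and 7.19% of all genes. With the same total as well, 3 were lower and 10 higher, beside 2.39% and 17.1% of all genes. Counts without sham control 6 for single lists below stand beside the same 8.33% of all genes lower. Per list, results at the same total are not given. The median of the members was -0.31, and the difference between the lists was not tested.

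The gene called lower was Sil1, the exchange factor for the endoplasmic reticulum HSP70. It ranged from 25.0 to 30.3 in sham controls and from 20.3 to 23.3 in stroke mice, without overlap. Its log2 fold change was -0.34 ± 0.089 (SE; limma, unadjusted p = 0.00248, adjusted p = 0.789). The other 11 HSP70 co-chaperones included St13, at 142 ± 41.9 (SD, n = 6) and 117 ± 11.8 (SD, n = 6), and Bag6, at 101.7 ± 5.59 (SD, n = 6) and 106 ± 8.15 (SD, n = 6), and their list of 12 had a median of -0.05, with 2 called lower without sham control 6.

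Among 14 HSP90 paralogs and co-chaperones, 11 were below 0 with a median of -0.13, and 6 were called lower without sham control 6. Fkbp5, a co-chaperone of steroid receptor complexes and a well-known glucocorticoid target, was higher, from 26.4 to 80.0 in sham controls and from 52.5 to 282 in stroke mice. This was a log2 fold change of 1.51 ± 0.378 (SE; limma, unadjusted p = 0.00167, adjusted p = 0.776). Hsp90b1, the HSP90 of the endoplasmic reticulum, was at 382 ± 103 (SD, n = 6) and 288 ± 85.0 (SD, n = 6), and Cdc37, which brings kinases to HSP90, at 157 ± 39.98 (SD, n = 6) and 144 ± 25.5 (SD, n = 6). Neither passed the test.

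Of 11 other HSP70 and HSP110 genes, 10 were tested, 8 were below 0 with a median of -0.18, and 0 were called. Without sham control 6, 3 were called lower. The most abundant were Hspa5, the HSP70 of the endoplasmic reticulum, with a log2 fold change of -0.61 ± 0.338 (SE; limma, adjusted p = 0.789), Hspa4 at -0.04 and the mitochondrial Hspa9 at 0.008. Among the 38 J-domain genes tested of 44, 19 were below 0 and the median was 0.02, with 4 called lower without sham control 6. Dnajb13 was higher at 10.97 ± 4.18 (SD, n = 6) compared with 7.15 ± 1.14 (SD, n = 6), with a log2 fold change of 0.53 (limma, unadjusted p = 0.0202, adjusted p = 0.789), and the abundant Dnajc7 and Dnajb6 were at 0.09 and 0.19.

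All 8 tested subunits of TRiC, the cytosolic chaperonin that folds actin and tubulin, were below 0 with a median of -0.18, and 0 were called. Without sham control 6 the median was -0.35 and 5 were called lower, beside 8.33% of all genes. In all mice, Tcp1 was at -0.03, Cct5 at -0.19 and Cct2 at -0.09. Of 10 small heat shock genes 3 were tested, and Hspb11 at -0.37, Hspb6 at 0.39 and Hspb9 at 0.06 showed no common direction, with Hspb11 called lower without sham control 6. Of the 4 other HSF genes only Hsf2 was tested, at 0.17.

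**Figure D5:**
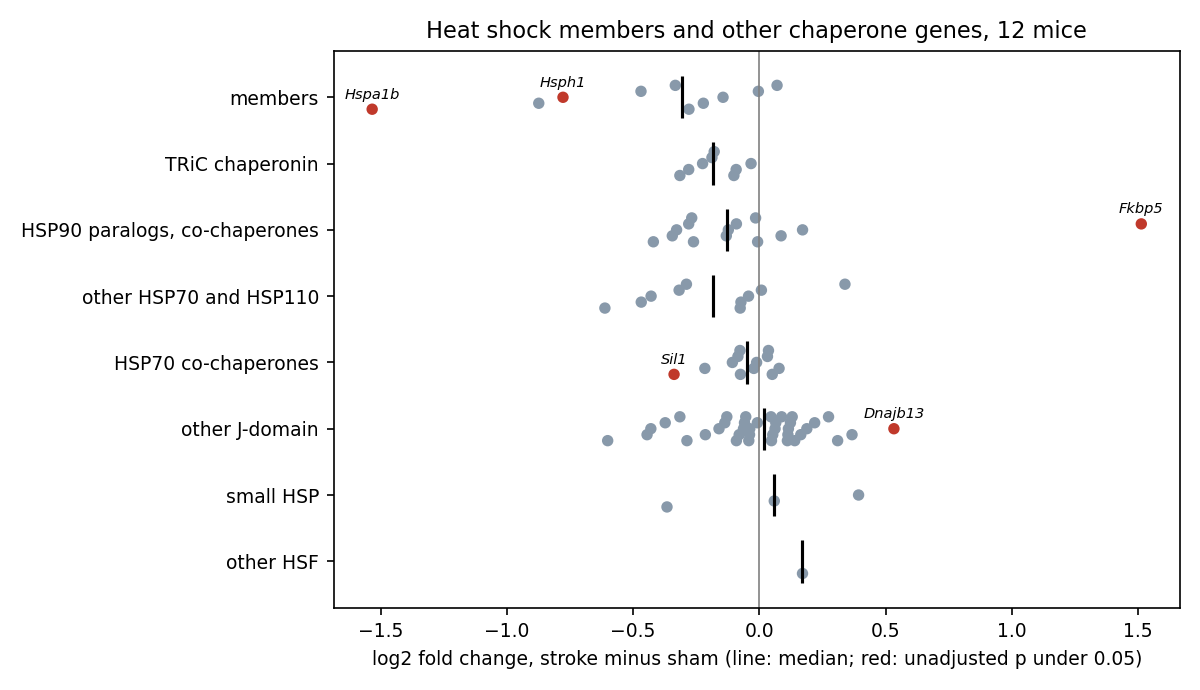
Log2 fold change (stroke minus sham, 12 mice) of every tested gene, 1 point each, for the members and the lists of other chaperones. Black lines are medians, red points have an unadjusted p under 0.05, and only Hspa1b, Hsph1, Sil1, Fkbp5 and Dnajb13 are red.

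Of 12 further known HSF1 target genes, some of them also in the chaperone lists, 10 were tested, 8 were below 0 with a median of -0.27, and 0 were called. Without sham control 6, 7 were called lower and the median was -0.47, beside 8.33% of all genes and 7 of 10 members, of which 1 was left at the same total. In all mice, among the most abundant, Ubb was at -0.08 and Dnaja1, an HSP40, at -0.60 ± 0.3 (SE; limma, adjusted p = 0.789). Genes of endoplasmic reticulum stress, led by Hsp90b1 and Hspa5, were below 0 in 9 of 11 cases with a median of -0.37 and 0 calls (without sham control 6, -0.53 and 5 called lower), and summed to between 687 and 1654 in sham controls and between 641 and 1416 in stroke mice. Immediate early genes, led by Jund and Btg2, were below 0 in 9 of 12 tested with a median of -0.37 and 0 calls (without sham control 6, -0.54 and 2 called lower), and their sums ranged from 211 to 487 in sham controls and from 186 to 449 in stroke mice, with sham control 3 the highest.

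Markers of cell types moved beside these lists. The epithelial markers were below 0 in 8 of 8 cases with a median of -1.55 and 0 called in all mice. Without sham control 6, 6 were called lower, beside 8.33% of all genes. Of the B cell markers 5 of 8 were below 0, with a median of -0.27 in all mice and -0.46 without sham control 6, and Cr2, the complement receptor of mature B cells, was lower at 158 ± 57.0 (SD, n = 6) compared with 258 ± 31.9 (SD, n = 6; limma, unadjusted p = 0.0196, adjusted p = 0.789), and 3 of the 8 were called lower without sham control 6. The plasma cell markers were below 0 in 4 of 5 cases with a median of -0.27 and 0 calls, with 2 called lower without sham control 6. Germinal centre and cycling markers, led by Mki67 and Top2a, summed to between 272 and 560 in sham controls and between 273 and 610 in stroke mice. T cell markers, led by Cd3d and Cd3g, summed to between 35.5 and 109 and between 34.0 and 126, myeloid markers, led by Lyz2 and Csf1r, to between 25.9 and 275 and between 36.1 and 146, and endothelial markers, mostly Pecam1, to between 78.5 and 105 and between 87.3 and 107. No marker of these lists was at 0 in all mice, and their part in the members' differences was not tested.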

How the data were processed

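RNA-seq of PP B cells was analysed for 6 sham controls and 6 stroke mice, grouped by the sample labels. Per the methods and the submitters' processing notes, the authors checked reads with FastQC, trimmed them with Trimmomatic 0.39, quantified them with kallisto 0.48.0 against Ensembl release 102 (GRCm38) and used sleuth 0.30.0 in R 4.1.2. Per gene, the authors deposited an expression signal labelled as normalized TPM. Because the column totals differ, they were treated as a signal and not as plain TPM, for which the tests had been designed, and the reads behind them are unknown. Any factor that scales a whole mouse moves all members in that mouse.

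Values were transformed as log2(value + 0.5), and the 15624 genes with a mean of at least 1 over the 12 mice entered an unblocked limma fit (limma 3.58.1, R 4.3.3) with Benjamini-Hochberg adjustment. Calls are given at an unadjusted and at an adjusted p under 0.05, with no minimum fold; the study describes its calls with an adjusted p and a minimum fold, and its plot with unadjusted p. The limma and permutation scripts were tested on simulated data. Single values were compared by two-sided exact permutation over the 924 ways to assign the mice (smallest p 0.0022), and correlations by 100000 permutations within groups (Python 3.11.15, scipy 1.17.1, numpy 2.4.6). Coordinates come from GENCODE mouse release 21 on GRCm38, which held 35869 of the 36175 gene identifiers, and promoter sequences from RefSeq (GRCm38.p6).

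The members and lists were chosen with earlier results of these data known. All members are named, then from each chaperone list the called genes and the most abundant up to 3, from the other lists the 2 most abundant genes, and the 5 genes most like the inducible members. A gene of this rule is not reported here. Markers Bag3, Fosb, Dusp1, Jun, Egr1 and Atf3 were named after their values were seen, as was Cr2. Alternatives were other pseudocounts, filters, scalings, a replicate block, sample weights, an intensity trend and leaving out mice.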

Additional observations from a re-analysis of the deposited data

Results flagged for a closer look

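On the log2(value + 0.5) scale, the levels of 4 members in sham control 6 lay far below those of the other 5 sham controls. Hspa8 was at 168 (gap to the next mouse 0.702 of the group's log2 range), Hsp90ab1 at 278 (0.788), Hspd1 at 27.7 (0.803) and Hspe1 at 45.03 (0.632), each above the 95% critical value of Dixon's test for 6 samples. On untransformed values the ratio was 0.512 for Hspa8 and 0.483 for Hspe1, below that value, and 0.669 for Hsp90ab1 and 0.696 for Hspd1, above it. Sham control 3 was then far above the others for Hspa1a (12.4, 0.861) and Hspa1b (27.8, 0.825). In all, 20 groups were examined (10 members in 2 groups), and chance alone would mark about 1 in 20. The 4 marks on the log2 scale come from 1 mouse and from members whose levels correlate, so they are not independent.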

How the results depend on the processing

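Over all alternatives, 0 members passed an adjusted p under 0.05 (lowest adjusted p 0.232, for Hspa1b). Hspa1b kept its direction and its unadjusted call wherever it was tested. The 2 members called lower became 1 when at least 1 was required in every mouse, where Hspa1a and Hspa1b drop out and 8 members were tested, and ranged from 2 to 7 when single mice were left out, 7 being the count without sham control 6. With sample quality weights the count was 3, with Dnajb1 added (log2 fold change -0.705, limma, unadjusted p = 0.0112). It was 6 without sham controls 3 and 6 and 1 without sham control 6 after scaling to the same total, both chosen after seeing the data, and Hsph1 then had a limma p of 0.0551. Of the other chaperones, 1 was lower, which became 2 with at least 1 in every mouse, 0 with the same total, 2 with median of ratios, 2 with quantile normalization, 10 with sample quality weights, 17 without sham controls 3 and 6, and 3 without sham control 6 at the same total, with a range from 1 to 21 when single mice were left out. The 2 higher became 4 with the same total, 1 without sham controls 3 and 6, and 10 without sham control 6 at the same total, with a range from 2 to 6. The cause was not tested. Signs turned for Hsf1 with sample quality weights (-0.0379), for Hsp90aa1 when single mice were left out (-0.379 to 0.00605), and for Hsp90ab1 with the same total (0.12), quantile normalization (0.17), the same total without sham control 6 (0.00357), and single mice left out (-0.28 to 0.095). Scaling to the same total moved the median of all genes to 0.13, so Hsp90ab1 there lay at that median. Over all genes 250 were lower and 670 higher, compared with 122 and 434 with the same total, 357 and 510 with median of ratios, 328 and 503 with quantile normalization, 374 and 2669 with the same total without sham control 6, 650 and 993 with sample quality weights, 350 and 1418 without a filter, 1356 and 978 without sham controls 3 and 6, and 1301 and 1123 without sham control 6. The median correlation of member pairs (0.692) was 0.367 in stroke mice alone and 0.574 without sham control 6. As the depth of each mouse is unknown, no counting error could be given.

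The labels do not say what the replicate numbers stand for, and the mice were not treated as pairs in the main fit. Same-numbered mice had correlations of their deviations from -0.014 to 0.471, and 2 of 6 sham controls were most like the stroke mouse of their own number. Whether the numbers mark pairs cannot be told from this. With the replicate number as a block, 2 members remained the count of lower calls, 5 other chaperones were lower, 508 genes were lower and 930 higher, and the exact sign-flip p was 0.0938 for Hsph1 and 0.0312 for Hspa1b, the smallest that 6 pairs allow.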
